A study of Mus musculus with 4 samples.

Results

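The genes described here encode enzymes that add, oxidise or help to remove methyl groups on cytosine in DNA: Tdg, Tet1, Tet2, Tet3, Mbd4, Ung, Smug1, Dnmt1, Dnmt3a and Dnmt3b. They were taken by symbol from the deposited expression table, where all 10 were found among 30637 genes. All 10 had a mean of at least 1 FPKM, fragments per kilobase of exon and 1000000 fragments, as did 13927 genes in all. The set was chosen by the FPKM of Tdg, which differed between the genotypes in these same libraries, with the other genes added for their roles. Genotype differences of the 10 genes are therefore given as a description, with no test.

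The libraries came from the telencephalon, the embryonic forebrain vesicle that forms the cortex and basal ganglia, of C57BL/6 mice at embryonic day 13. There were 2 control libraries (control 1 and control 2) and 2 libraries from conditional knockouts of Pd1 (Pd1CKO 1 and Pd1CKO 2), in a study on how Pd1 acts on neural progenitors. Controls carry the genotype WT in the labels and Pd1fl/fl, the floxed allele without a stated Cre, in the design text. The Cre driver, and whether tissue was pooled, are not given in the sources used here. Where a pair of values is given for the controls or the knockouts, number 1 stands first and number 2 second. Nothing in the labels says that the samples came from separate litters, and p-values then cover the spread among these 4 samples alone, which may be technical.

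Depth was 16197350 to 18735650 counted fragments per library. Pdcd1, the gene of PD-1, was at 0 in 3 libraries and at 0.416 FPKM, or 13 fragments, in control 2, too few to check the genotype labels by it. The Y-linked gene Ddx3y was at 9.48 FPKM in Pd1CKO 2 and at 0 in the other libraries. Xist, a gene expressed in females, was at 0.00308 FPKM in Pd1CKO 2. It was at 34.8 in control 1, 61.2 in Pd1CKO 1 and 54.0 in control 2. By these genes Pd1CKO 2 alone was male, so sex differed within the knockouts and within number 2. All 8 telencephalon markers were above 0 in every library. Between the libraries numbered 1 and those numbered 2, 4877 genes, or 35.0% of those tested, differed in limma at an adjusted p under 0.05. That count was 2614 without control 2 and 2787 without Pd1CKO 2. The sources used here do not say what the number stands for. Values of bulk tissue do not tell fewer cells of a type from less RNA per cell.

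Methylation of cytosine at CG dinucleotides is set by Dnmt3a and Dnmt3b, the de novo methyltransferases, and copied at each DNA replication by Dnmt1. Its removal can be passive, when copying fails, or active. In the active route the TET dioxygenases oxidise methylcytosine, the glycosylase TDG cuts out the formyl and carboxyl forms, and base excision repair fills the gap. MBD4, UNG and SMUG1 are glycosylases that remove thymine or uracil from DNA, and DNA methylation and its oxidised forms are known for their change as neurons form.

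Dnmt1 had the highest level per length of the 10 genes, with a mean of 38.9 FPKM over the 4 libraries, followed by Tdg with 26.3. Dnmt3a and Tet3 came next with means of 12.7 and 12.2 FPKM, then Ung with 6.47, Smug1 with 4.26 and Mbd4 with 3.31. Tet1, Tet2 and Dnmt3b were the lowest, with 2.40, 2.39 and 1.49 FPKM. The ranges of neighbours in this order overlapped for Dnmt3a and Tet3, for Tet3 and Ung, for Ung and Smug1, for Smug1 and Mbd4, and for Tet1 and Tet2. They did not overlap between Dnmt1 and Tdg, between Tdg and Dnmt3a, between Mbd4 and Tet1, or between Tet2 and Dnmt3b. Within the TET family Tet3 held 69.1% to 73.4% of the summed FPKM in each library. Within the DNMT family Dnmt1 held 70.8% to 74.8%.

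**Figure D1:**
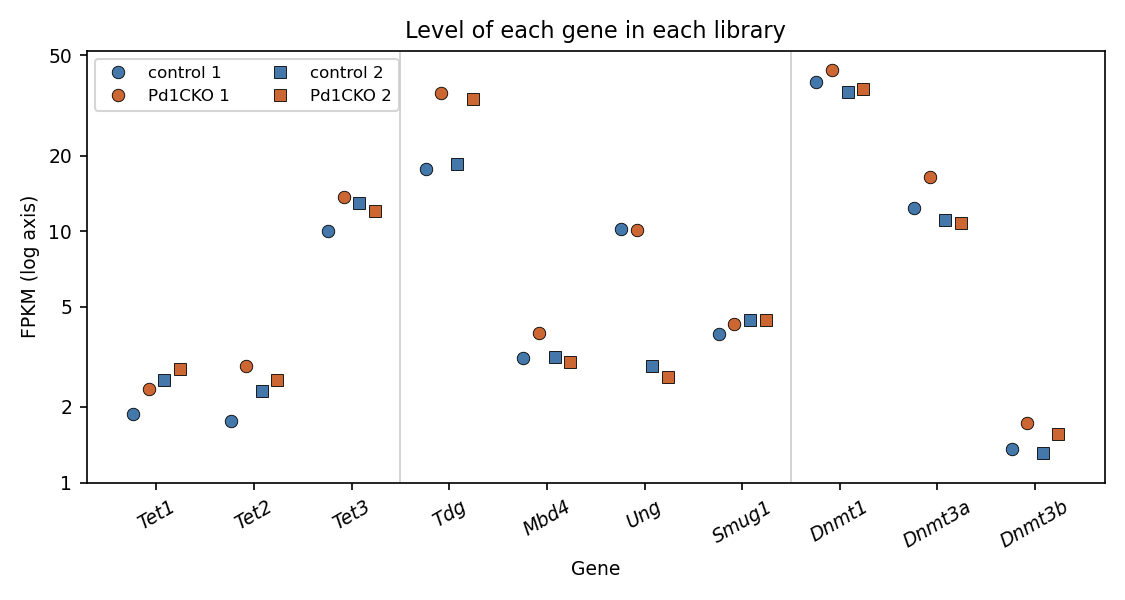
FPKM of the 10 genes on a log axis, 1 point per library, with circles for number 1 and squares for number 2, and blue for control and orange for Pd1CKO; the vertical lines separate TET genes, glycosylases and DNMT genes. Tdg separates by colour, with the controls at 17.7 and 18.5 FPKM and the knockouts at 35.5 and 33.6, and Ung separates by shape, with 10.2 and 10.1 FPKM in number 1 against 2.91 and 2.64 in number 2.

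Tdg (ENSMUSG00000034674, mm10 chromosome 10, 82629828 to 82650799, plus strand) encodes the glycosylase that acts on the oxidised bases in active demethylation. It stood at 17.7 and 18.5 FPKM in the controls against 35.5 and 33.6 in the knockouts. Both Pd1CKO values lay above both control values, and libraries of 1 genotype differed little. The mean over controls was 18.1 ± 0.529 FPKM and that over knockouts 34.6 ± 1.38 (SD, n = 2), a ratio of 1.91. On the log2(FPKM + 1) scale, which understates the change of low genes, Pd1CKO exceeded control by 0.97 in number 1 and by 0.83 in number 2. Among the 13927 genes, 55 had a higher mean of these log2 ratios than Tdg. In the authors' deposited table of genes with a number 1 ratio above 2, which lists 1714 of 21532 genes with a ratio, Tdg was the only one of the 10 genes. Its ratio there was 2.006, where the smallest listed was 2.001. That ratio comes from the same number 1 values as above and is no separate evidence.

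Tdg has near-identical processed pseudogenes, copies of its spliced mRNA put back into the genome. Fragments from the gene and from such copies are hard to tell apart, so their sequences and counts are set beside Tdg. The Tdg coding sequence (transcript Tdg-201 of Gencode M21, build GRCm38, the same assembly as mm10) is 1194 bases long over 9 exons. The pseudogene Gm9855 (chromosome 10, 42054113 to 42055306, minus strand) is annotated over exactly this coding stretch. It differed from Tdg at 9 of 1194 bases, an identity of 99.25%, and held 0 in-frame stop codons before its end. Gm5597 (chromosome 7, 76244746 to 76245938, minus strand) differed at 8 of 1193 bases and held 1 earlier in-frame stop codon. Tdg-ps (chromosome 15, 82516311 to 82519278, plus strand) differed at 14 of the 1194 coding bases.

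Positions count from 1 at the A of the Tdg start codon, and a substitution gives the Tdg base, the position and the copy's base. Gm9855 carried A98C, A855G, G877A, G879C, T993C, T1056C, G1084A, A1090G and G1101A. T993C, T1056C and A1090G were shared by all 3 copies. The 2 stretches where Gm9855 and Tdg differ most densely are printed, since a fragment that covers such a difference can be assigned by its sequence. In coding bases 1033 to 1122, 5′ to 3′ on the coding strand, capitals mark in Tdg the bases at which any copy differs, and in each copy its differences from Tdg:
Tdg: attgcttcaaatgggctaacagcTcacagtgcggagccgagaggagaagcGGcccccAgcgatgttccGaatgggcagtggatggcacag
Gm9855: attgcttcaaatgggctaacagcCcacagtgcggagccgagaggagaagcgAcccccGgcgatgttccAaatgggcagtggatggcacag
Gm5597: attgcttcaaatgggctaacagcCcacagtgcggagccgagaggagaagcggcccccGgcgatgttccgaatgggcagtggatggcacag
Tdg-ps: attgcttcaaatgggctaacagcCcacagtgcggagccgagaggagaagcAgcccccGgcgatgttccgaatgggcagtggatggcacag

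In coding bases 837 to 896 the capitals mark the 3 differences between Tdg and Gm9855:
Tdg: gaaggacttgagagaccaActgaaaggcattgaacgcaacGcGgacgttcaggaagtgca
Gm9855: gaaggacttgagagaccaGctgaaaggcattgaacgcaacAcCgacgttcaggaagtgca

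Between coding bases 99 and 854, a run of 756 bases, Tdg and Gm9855 did not differ. A fragment that lies wholly within that run has the same sequence from either place. Outside the coding stretch, 4180 bases of the 5374 exon bases of Tdg have no counterpart in the annotated Gm9855. The sources used here do not say how fragments that fit several places were counted.

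**Figure D2:**
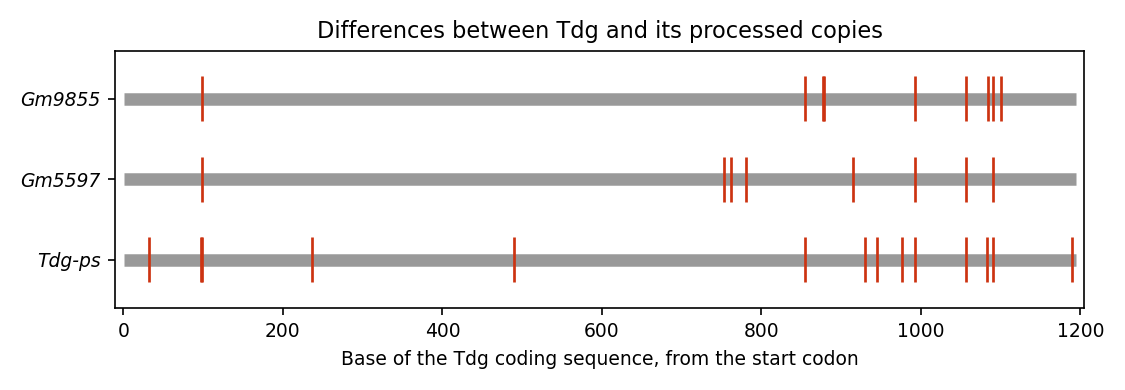
Positions, in bases from the start codon of Tdg, at which each of 3 processed pseudogenes differs from the Tdg coding sequence (red ticks; grey bars span the 1194 coding bases). Gm9855 has 9 differences, 8 of them after base 854 and 1 at base 98.

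Gm9855 went the opposite way to Tdg. It stood at 27.6 and 34.4 FPKM in the controls against 5.01 and 8.19 in the knockouts, so both Pd1CKO values lay below both control values. Its log2 ratios were -2.25 in number 1 and -1.95 in number 2, and 1 of the 13927 genes had a lower mean ratio. These rest on 612 and 665 fragments for the controls and 112 and 177 for the knockouts. Of the fragments counted at Tdg and Gm9855 together, Gm9855 took 25.7% in control 1 (95% Wilson interval 24.0 to 27.5) and 3.04% in Pd1CKO 1 (2.53 to 3.64). In number 2 it took 29.3% in control (27.4 to 31.2) and 5.14% in Pd1CKO (4.45 to 5.93). The other copies held few fragments: Gm5597 between 23 and 37, and Tdg-ps between 5 and 12.

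The level of Tdg itself rests on 1768 and 1607 fragments for the controls and 3578 and 3268 for the knockouts. As fragments per 1000000 counted, Tdg was higher in Pd1CKO than in control by 95.8 in number 1 and by 81.3 in number 2. On the same scale Gm9855 differed by -27.0 in number 1 and by -31.3 in number 2. The gain at Tdg was thus 3.55 times the loss at Gm9855 in number 1 and 2.599 times in number 2. The fold of Tdg alone, Pd1CKO over control, was 2.01 in number 1 (exact 95% counting interval 1.90 to 2.13) and 1.82 in number 2 (1.71 to 1.93). Summed with Gm9855, the fold was 1.54 (1.46 to 1.62) and 1.36 (1.29 to 1.43), and with all 3 copies it was 1.53 and 1.36. These intervals cover counting error only and leave out the spread between libraries. They may be too narrow even for that error, since PCR copies of a fragment are not independent molecules. The part of the assignment between Tdg and Gm9855 in the level of each was not tested.

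**Figure D3:**
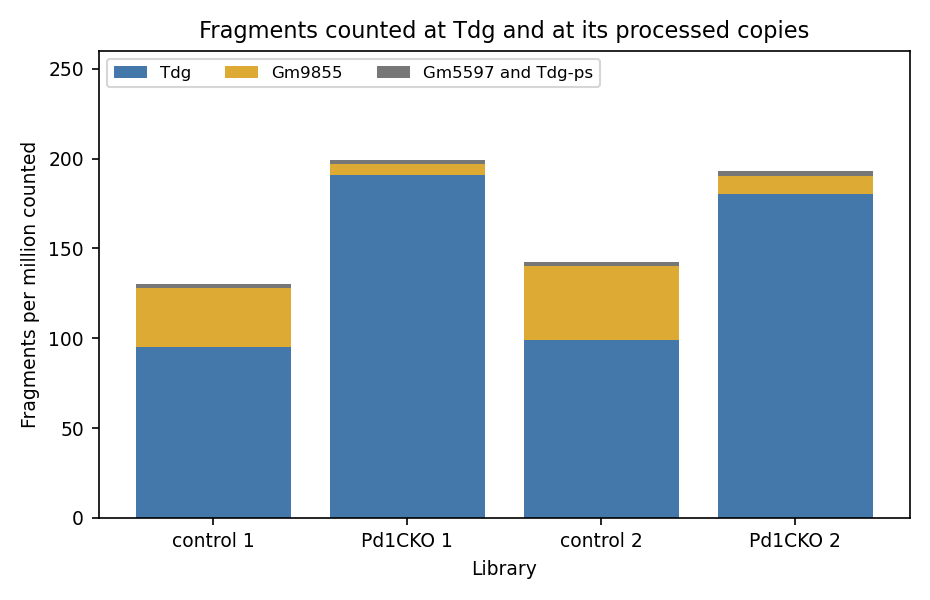
Fragments per 1000000 counted at Tdg (blue), Gm9855 (yellow) and Gm5597 with Tdg-ps (grey), stacked for each of the 4 libraries. For the controls the blue part is 95.2 and 99.2 and the yellow part 33.0 and 41.1, and for the knockouts the blue part is 191.0 and 180.5 and the yellow part 5.98 and 9.78.

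At its 3′ end the Tdg gene overlaps Glt8d2, a gene on the other strand, by 367 bases. The sources used here do not say if strand entered the counting, and Glt8d2 was no higher than 0.567 FPKM in any library. The expressed genes on either side of Tdg were read in the same way. Going back from its start, 1190007I07Rik, 6.60 kb away on the opposite strand, had 5.13 and 3.82 FPKM in the controls against 7.49 and 5.91 in the knockouts. Its Pd1CKO values were above both control values, with log2 ratios of 0.47 in number 1 and 0.52 in number 2. The predicted gene Gm4924 had log2 ratios of 0.21 and 0.06, and the zinc finger gene Zfp938, 389 kb away, had 0.35 and 0.35. On the far side, Hcfc2 had ratios of 0.18 and -0.18, the transcription factor subunit gene Nfyb -0.04 and -0.07, and the redox enzyme gene Txnrd1 -0.03 and -0.08.

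The genes most like Tdg in pattern were found by Euclidean distance between centred log2(FPKM + 1) values over the 4 libraries, among 11675 genes without predicted genes and pseudogenes. The nearest was the opposite-strand transcript Rab26os, at a distance of 0.22, where the controls held 1.41 and 1.61 FPKM and the knockouts 3.01 and 3.11. Next were the ion channel gene Trpm3 at 0.26, Klhl11 at 0.32, Ptar1 at 0.41 and Fam208b at 0.42. All 5 had a lower level than Tdg, at no more than 4.25 FPKM in any library.

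The other glycosylases did not share the pattern of Tdg. Mbd4, which binds methylated CG and removes mispaired thymine, had 3.14 and 3.17 FPKM in the controls against 3.92 and 3.01 in the knockouts. Its highest and lowest values were both in Pd1CKO. Smug1, a uracil glycosylase, had 3.90 and 4.43 FPKM in the controls against 4.28 and 4.42 in the knockouts. It was the steadiest of the 10 genes, with a ratio of highest to lowest that exceeded those of 6.4% of the genes tested. Of the summed FPKM of the 4 glycosylase genes, Tdg held 50.6% and 63.7% in the controls against 66.0% and 76.9% in the knockouts.

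Ung, the uracil glycosylase that clears uracil from replicated DNA, separated the libraries by number and not by genotype. Number 1 held 10.2 FPKM in the control and 10.1 in the knockout, and number 2 held 2.91 and 2.64. The values within a number were close, and the numbers did not overlap. These levels rest on 1039 and 1036 fragments in number 1 and on 258 and 261 in number 2. The fold of number 1 over number 2 was 3.51 in control (exact 95% counting interval 3.06 to 4.04) and 3.84 in Pd1CKO (3.35 to 4.41). The contrast of number 2 with number 1, which played no part in picking the genes, gave a log2 difference of -1.57 ± 0.10 (SE) and an adjusted p of 0.000944 in limma. Ung was lower in number 2 in both genotypes. Ung was the only one of the 10 called lower in number 2, against 18.5% of all genes tested, and 0 of the 10 were called higher, against 16.5%. Without a test, both values of number 2 lay above both of number 1 for Tet1 and Smug1, which held for 38.5% of all genes, and below them for Ung, Dnmt1 and Dnmt3a, which held for 34.1%.

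**Figure D4:**
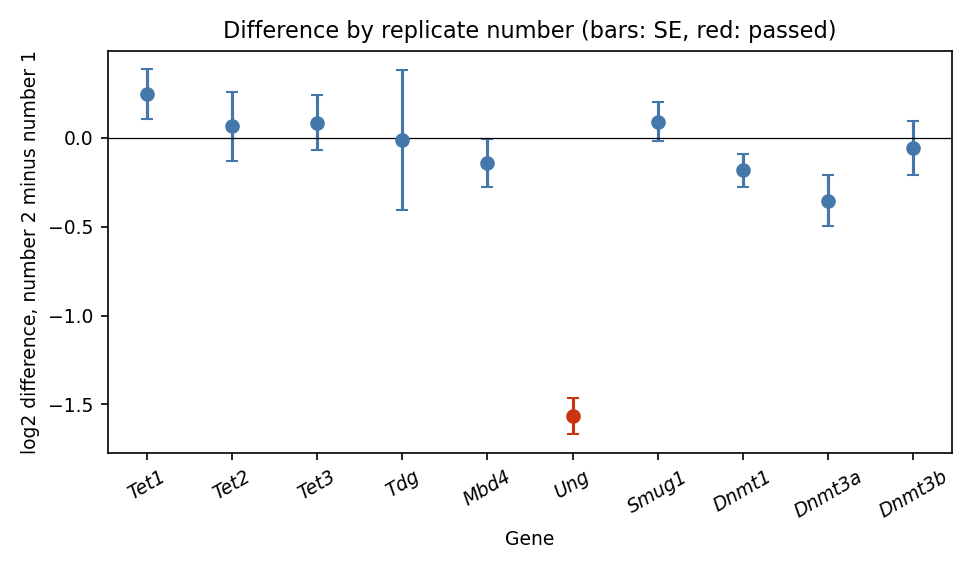
Log2 difference of number 2 minus number 1 on the log2(FPKM + 1) scale for each of the 10 genes, with bars for the standard error from limma. Ung, in red, lies at -1.57 and passed at an adjusted p of 0.05, while the other 9 genes lie between -0.35 and 0.25.

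Genes of DNA replication and several cell type markers differed along with Ung between the numbers. Among all genes tested, 18.5% were called lower in number 2 and 16.5% higher. Of the 15 S phase genes, 13 were called lower in number 2 and 0 higher, and their summed level was 413 and 425 FPKM in number 1 against 239 and 242 in number 2. Of 12 radial glia genes, which mark neural stem cells, 9 were lower and 2 higher. Of 12 postmitotic neuron genes, 0 were lower and 6 higher. Meningeal genes, of which 7 of 8 were called lower, summed to 49.4 and 89.0 FPKM in number 1 and to 3.03 and 4.09 in number 2. Of 8 erythroid genes, all above 0 in every library, 4 were lower and 2 higher, and their sum was 2050 and 2094 FPKM in number 1 and 1240 and 1152 in number 2. The embryonic globin gene Hbb-y differed by -3.62 (adjusted p = 0.000703, limma), and the adult globin gene Hbb-bs, chosen after its values were seen, by 1.60 (adjusted p = 0.000820, limma). Adult globin genes went both ways: Hbb-bt differed by 0.55 (adjusted p = 0.0459, limma). Hba-a1 differed by -0.60 (adjusted p = 0.0123, limma) and Hba-a2 by -1.08 (adjusted p = 0.03015, limma). Of 8 telencephalon genes, 6 were lower and 0 higher, and their sum was 515.7 and 546.0 FPKM in number 1 and 312.5 and 325.0 in number 2. The part of these genes in the difference of Ung was not tested.

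Dnmt1, the maintenance methyltransferase, is best known from dividing cells. It had 39.1 and 35.9 FPKM in the controls against 43.8 and 36.8 in the knockouts. Both values of number 2 lay below both of number 1, and the log2 difference of -0.18 ± 0.09 (SE) did not pass in limma (adjusted p = 0.184). Dnmt3a had 12.4 and 11.1 FPKM in the controls against 16.4 and 10.8 in the knockouts. Pd1CKO 1 stood above the other libraries, and the difference by number was -0.35 ± 0.14 (SE) and did not pass (limma, adjusted p = 0.110). Without control 1, which leaves Pd1CKO 1 alone in number 1, the difference was -0.26 for Dnmt1 and -0.54 for Dnmt3a. Without Pd1CKO 1, which leaves control 1 alone, it was -0.10 for Dnmt1 and -0.17 for Dnmt3a. Dnmt3b had 1.36 and 1.32 FPKM in the controls against 1.72 and 1.56 in the knockouts, on 109 to 165 fragments. Its Pd1CKO values lay above its control values, but the counting intervals of its fold were wide. They were 1.001 to 1.609 in number 1 and 0.915 to 1.53 in number 2. The related methyltransferase gene Dnmt3c, which lies beside Dnmt3b, had at most 3 fragments in a library, and the cofactor gene Dnmt3l at most 0.0180 FPKM.

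The TET genes were led by Tet3, with 10.06 and 12.99 FPKM in the controls against 13.63 and 12.03 in the knockouts. Its control values enclosed one of the Pd1CKO values. Tet1 had 1.87 and 2.56 FPKM in the controls against 2.36 and 2.82 in the knockouts, higher in Pd1CKO within each number and higher in number 2 within each genotype. Its difference by number was 0.25 ± 0.14 (SE) and did not pass in limma (adjusted p = 0.217). Tet2 had 1.76 and 2.31 FPKM in the controls against 2.90 and 2.57 in the knockouts, with control 1 the lowest and Pd1CKO 1 the highest. The Tet2 fold, Pd1CKO over control, was 1.65 in number 1 (exact 95% counting interval 1.48 to 1.83) and 1.11 in number 2 (0.9997 to 1.24). For Tet3 it was 1.355 in number 1 (1.293 to 1.419) and 0.9257 in number 2 (0.8835 to 0.9699). These intervals cover counting error only, leave out the spread between libraries and are no test of genotype.

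Over the 10 genes, 9 were higher in the knockout of number 1 than in its control, against 54.7% of all genes tested. These 9 include Tdg, by which the set was chosen. The median log2 ratio of the 10 was 0.24 against 0.03 for all genes tested. In number 2, 5 of 10 were higher, with a median of 0.02 against 0.00. Tdg, Tet1, Tet2, Dnmt1 and Dnmt3b were higher in Pd1CKO in both numbers, as were 28.2% of all genes tested, and Ung was lower in both, as were 23.5%. For Tdg, Tet2 and Dnmt3b the Pd1CKO values did not overlap the control values from above, which held for 8.37% of all genes. For 0 of the 10 did the knockout values all lie below, which held for 6.14%. In the fit of genotype over all genes, limma called 0 of 13927, or 0.0%, at an adjusted p under 0.05, and 47 had an unadjusted p under 0.05. With limma-voom on recovered fragments 0 were called as well and 57 had an unadjusted p under 0.05. With replicate number as a block in limma, 5 were called and 621 had an unadjusted p under 0.05. These counts describe all genes tested and are no test of the 10, given how the set was chosen. Levels of some cell type markers also differed between the genotypes, with 0 of them called. The 8 choroid plexus markers summed to 208.6 and 21.6 FPKM in the controls against 278.5 and 344.9 in the knockouts, with Ttr the most abundant, and 4 of the 6 tested were higher in both numbers. The 8 genes listed as diencephalon markers summed to 126.1 and 29.5 FPKM in the controls against 57.2 and 24.9 in the knockouts, and 6 of the 7 tested were lower in both. The largest part was Nkx2-1, at 67.6 and 12.8 FPKM in the controls against 37.1 and 10.8 in the knockouts. Nkx2-1 is also a gene of the ventral telencephalon, so these sums do not measure diencephalic tissue alone. Of the 8 meningeal genes, 7 were higher in the knockouts in both numbers. All members of these lists were above 0 in every library. Their part in the values above was not tested.

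**Figure D5:**
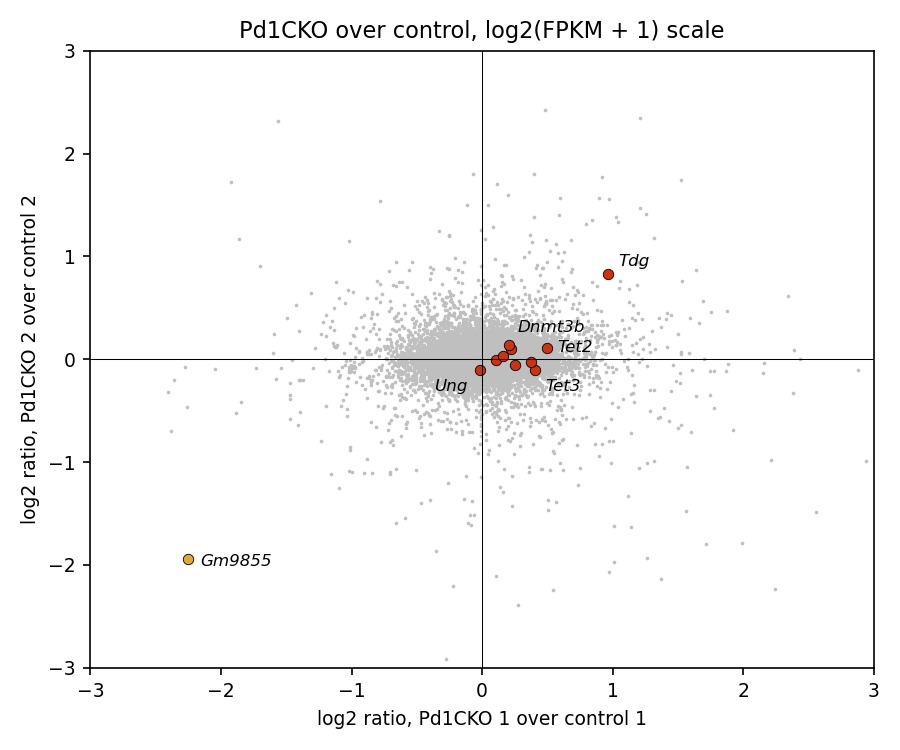
Log2 ratio of Pd1CKO over control in number 1 (horizontal axis) and in number 2 (vertical axis) on the log2(FPKM + 1) scale for 13927 genes (grey), the 10 genes described here (red) and the pseudogene Gm9855 (yellow); 20 genes lie outside the axes. Tdg lies at 0.97 and 0.83 and Gm9855 at -2.25 and -1.95, while the other 9 red points lie between -0.02 and 0.50 on the horizontal axis.

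The rest of the pathway was read from lists by role. None of their 157 tested genes, cell type markers included, passed in the fit of genotype in limma, and 0 had an unadjusted p under 0.05. Of all 13927 genes tested, 0 passed and 47 had an unadjusted p under 0.05, so these counts do not set the lists apart. With limma-voom 0 of 165 passed, as did 0 of all 17627 genes. Median log2 ratios, in number 1 and then number 2, were -0.07 and -0.04 for 18 genes of base excision repair. They were 0.12 and 0.02 for 12 genes listed as readers of methylated DNA, and 0.12 and 0.00 for 10 genes that maintain or target methylation. They were -0.03 and -0.02 for 11 partners and cofactor enzymes of TET proteins. For 6 genes of the deaminase and Gadd45 list, which holds Gadd45gip1 and Ing1 as well, they were -0.05 and 0.05. For 11 genes of the SUMO pathway, which modifies TDG, they were 0.06 and -0.03.

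Among repair genes, the ligase gene Lig3, which seals the repaired strand, had 4.09 and 7.31 FPKM in the controls against 7.94 and 6.67 in the knockouts. Control 1 stood below the other libraries. The glycosylase genes Mpg and Nthl1 had log2 ratios of -0.36 and -0.16, and of -0.15 and -0.14, in number 1 and number 2. Of the 18 repair genes tested, 10 were called lower in number 2 and 2 higher in limma, against 18.5% and 16.5% of all genes tested. The replication clamp gene Pcna, chosen after its values were seen, had 149 and 150 FPKM in number 1 and 92.7 and 92.6 in number 2.

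The genes listed as readers were drawn up by role, and binding of methylated DNA was not checked for each. Among them, Wdr76 had log2 ratios of 0.37 in number 1 and 0.13 in number 2. Zbtb33, which encodes the methyl-CG binding factor Kaiso, had 0.23 and 0.15. Mbd3, a subunit of the NuRD repressor complex, had 237 and 191 FPKM in number 1 and 100.4 and 94.7 in number 2. Its difference by number, -1.12, passed in limma (adjusted p = 0.00341). Of the 12 genes listed as readers, 3 were called lower in number 2 and 1 higher, against 18.5% and 16.5% of all genes tested. Among maintenance genes, Uhrf1, which brings Dnmt1 to newly copied DNA, had 44.6 and 23.9 FPKM in the controls against 51.1 and 23.8 in the knockouts. Its difference by number was -0.97 with an adjusted p of 0.00260 in limma, and its values in number 2 lay below those in number 1. The remodeller gene Hells had 8.61 and 4.93 FPKM in the controls against 12.1 and 5.25 in the knockouts, with a difference by number of -0.88 (adjusted p = 0.0139, limma). The chromatin gene Atrx had log2 ratios of 0.42 and 0.13. Of the 10 maintenance genes tested, 2 were called lower in number 2 and 2 higher, against the same 18.5% and 16.5%. The higher ones, named after their values were seen, were Zfp57 at 0.69 (adjusted p = 0.00356, limma) and Usp7 at 0.40 (adjusted p = 0.0390, limma).

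Of the TET partners, D2hgdh, whose enzyme clears a metabolite that inhibits TET proteins, had log2 ratios of -0.57 in number 1 and 0.01 in number 2. Ogt, the sugar transferase that binds TET proteins, had 23.9 and 42.2 FPKM in the controls against 31.6 and 45.7 in the knockouts. It was higher in number 2 by 0.66 (adjusted p = 0.0229, limma). Of the 11 TET partners tested, 3 were called higher in number 2 and 2 lower, against 16.5% and 18.5% of all genes tested. In the deaminase and Gadd45 list, 4 of 6 genes were called lower in number 2, against 18.5% of all genes tested. Among them were the stress genes Gadd45a, Gadd45b and Gadd45g, with limma differences of -1.37, -0.87 and -1.46. The remaining one was Gadd45gip1, at -1.82, which like Ing1 in the list is neither a deaminase nor a Gadd45 gene. Apobec1, the only deaminase gene tested, differed by 0.42 and did not pass (adjusted p = 0.0676, limma). Gadd45g had 110 and 89.0 FPKM in number 1 and 34.4 and 36.3 in number 2. In the SUMO list, Sumo2 had 180 and 39.4 FPKM in the controls against 104 and 117 in the knockouts, with opposite directions in the numbers. The acetyltransferase gene Ep300 had log2 ratios of 0.43 and 0.07, and Sumo3, which is listed under a second identifier below the filter as well, had -0.27 and -0.06.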

How the data were processed

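Poly(A)-enriched RNA of 4 libraries was sequenced, per the labels' protocols. The submitters' processing notes list featureCounts, StringTie, HISAT2, TopHat, fastp, FastQC and build mm10 without saying which step used which. The deposited 4-library table has no unit in its header and was read as FPKM made by the authors. Multiplied by exon-union length (Gencode M21, lengths for 99.8% of genes, 95.6% with identical coordinates) and depth, values under 200 fragments were whole to within 0.1 in 97.3% to 97.5% of cases. This step gave the depth and the fragments used. Further deposited tables hold the ratio of Pd1CKO to control FPKM made by the authors.

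Genotype and replicate number were each fitted alone with limma 3.58.1 (R 4.3.3, trended prior) on log2(FPKM + 1), for genes averaging 1 FPKM or more, with Benjamini-Hochberg adjustment over all genes at 0.05. Intervals are exact Clopper-Pearson intervals of a fold, conditional on the summed fragments, or Wilson intervals of a share. Python 3.11.15 with pandas 2.3.3, scipy 1.17.1 and matplotlib 3.10.9 gave the other values.

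The members, lists and tests were chosen with earlier results of these data known. Named genes were the 10 members, their pseudogenes, up to 3 genes per pathway list with the largest mean log2 ratio in size, up to 2 per marker list by level, 3 expressed neighbours of Tdg on each side, and the 5 genes nearest to Tdg in pattern. Some genes that this rule names are not reported here. The table of number 1 alone was not used here. The alternatives were a replicate block, another pseudocount, 2 other filters, median-of-ratios scaling, leaving out each library, limma-voom, and summing Tdg with its copies. The sum over all 3 copies was added after seeing the data. For the list gene Dppa3 no row was matched.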

Additional observations from a re-analysis of the deposited data

How the results depend on the processing

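Depth limits Dnmt3b most, at 109 to 165 fragments a library. The Tdg difference between genotypes, 0.90 on the log2(FPKM + 1) scale, ran from 0.86 to 0.94 over 10 alternatives. Summing Tdg with Gm9855 lowered its fold from 2.01 to 1.54 in number 1 and from 1.82 to 1.36 in number 2, and adding Gm5597 and Tdg-ps, chosen after seeing the data, gave 1.53 and 1.36. By construction, the sum counts fragments at either place. Median-of-ratios scaling changed the sign of 0 of 20 within-number ratios of the 10 genes. Over all alternatives, 7 of 95 genotype differences of the 10 genes changed sign, each with 1 library left out: Tet3 and Smug1 without control 1, Mbd4, Dnmt1 and Dnmt3a without Pd1CKO 1, and Ung without control 1 or Pd1CKO 2, which ran from -0.87 to 0.75. Ung kept its call by number in 10 of 10 alternatives (-1.87 to -1.51, adjusted p 9.69e-06 to 0.0119 in limma). The count of the 10 genes called by number was 1 to 3 with 1 library left out. It was 3 without control 1, which leaves Pd1CKO 1 alone in number 1, with Dnmt1 and Dnmt3a called lower besides Ung. Of all genes tested, 22.8% were called lower in that setting, so the 3 do not set the 10 genes apart. The count of all genes called by number was 4877, 2976 without the filter on low values, and 2614 to 6850 with 1 library left out, lowest without control 2 (2614) or Pd1CKO 2 (2787); the cause was not tested. With replicate number as a block, 5 genes were called for genotype in limma, against 0 without it. An unadjusted p under 0.05 was held by 621 genes, against 47. Deviations of same-numbered libraries correlated at 0.799 across genes over 2 pairs, but the labels do not say that a number marks a shared litter or day. With all 4 libraries kept, no pathway list gene was called by genotype in any alternative, where 0 to 5 of all genes tested were called.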
